A study of Mus musculus with 23 samples.

Results

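Gene expression of longissimus dorsi, the long extensor muscle that runs beside the spine, was compared between space-flown mice (BF) and mice kept in the animal facility (FC). The comparison was made up of the 5 arrays titled BF LD and the 5 arrays titled FC LD, 10 of the 23 arrays of the series, and used the deposited log2 signals of all 22626 probe sets. All mice were adult C57BL/N6 males with no genetic change. BF mice had spent 30 days in orbit aboard the Bion M1 biosatellite, and FC mice had spent the same 30 days in the standard cages of an animal facility. The 5 arrays of a further group (BG), mice housed on the ground in a copy of the flight habitat for 30 days, are given beside BF and FC where they bear on a gene. BF and FC mice differed in weightlessness, in launch and landing, and in housing, and these cannot be told apart in BF vs. FC. Flown mice were examined hours after landing, so that days in orbit and hours on the ground cannot be told apart either. Each array carries the RNA of 1 muscle sample. The labels do not name the animals, so the p-values measure the spread between these samples.

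The mass of skeletal muscle is set by the balance of protein synthesis and protein breakdown. Insulin holds FoxO transcription factors out of the nucleus. When FoxO is free, it switches on genes of the ubiquitin and autophagy pathways, such as the muscle ubiquitin ligase Fbxo32 (atrogin-1). Glucocorticoid hormones, released during stress and fasting, act on the same genes, and also rise and fall with the time of day together with the circadian clock of muscle.

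The promoter windows of 3 genes that rose in BF are shown because they hold motifs of FoxO, of the glucocorticoid receptor or of C/EBP factors, the family of Cebpb and Cebpd described below. They were taken from RefSeq on build GRCm38.p6, run from 250 bases before to 50 bases after the start of the transcript, and carry the motif in capitals. Lcn2, chr2:32387690-32387989 on the minus strand, holds a motif of C/EBP factors (TTGCNNAA) whose first base is at -216. Txnip, chr3:96557707-96558006 on the plus strand, holds a motif of the glucocorticoid receptor (GRE, the inverted repeat that binds it) at -172 and one of FoxO (TGTTTAC, here read on the other strand) at -121. Sesn1, chr10:41810324-41810623 on the plus strand, holds a FoxO motif at base 22 after the start. A second window of Sesn1 in the table, chr10:41887189-41887488 on the plus strand, holds no FoxO motif and is not printed. Other raised genes hold such motifs as well and are not printed, FoxO in Tmem140 and C/EBP in Mt2, Acot1, Net1 and Retreg1. The windows of Fkbp5, Cdkn1a and Mt2 hold no glucocorticoid receptor motif.
Lcn2: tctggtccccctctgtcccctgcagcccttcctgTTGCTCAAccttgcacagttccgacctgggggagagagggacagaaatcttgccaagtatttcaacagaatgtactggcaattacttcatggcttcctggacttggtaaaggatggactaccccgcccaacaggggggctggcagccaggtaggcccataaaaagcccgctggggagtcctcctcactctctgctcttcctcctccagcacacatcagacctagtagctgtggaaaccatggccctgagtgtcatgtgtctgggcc
Txnip: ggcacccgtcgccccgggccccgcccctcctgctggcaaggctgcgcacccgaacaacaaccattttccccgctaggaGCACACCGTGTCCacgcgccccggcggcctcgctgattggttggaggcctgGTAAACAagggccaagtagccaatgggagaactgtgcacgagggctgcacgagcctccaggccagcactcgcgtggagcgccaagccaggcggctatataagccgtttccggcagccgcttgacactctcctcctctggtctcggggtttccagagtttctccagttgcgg
Sesn1: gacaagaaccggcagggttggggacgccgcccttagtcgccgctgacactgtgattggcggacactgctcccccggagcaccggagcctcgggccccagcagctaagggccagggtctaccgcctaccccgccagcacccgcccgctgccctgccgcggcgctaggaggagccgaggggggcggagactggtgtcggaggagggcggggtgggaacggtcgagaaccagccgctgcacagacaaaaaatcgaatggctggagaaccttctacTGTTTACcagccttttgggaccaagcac
Both strands were searched, and a match describes the letters of the window, not a bound site. Of the 47 genes called higher in BF (over 2-fold, below), 38 had a promoter in the table, with 51 windows in all. The FoxO motif lay in 3 of the 51 windows (5.88%), beside 3.65% of all 32851 windows of the table. The glucocorticoid receptor motif lay in 1 of them (1.96% beside 0.475%), and the C/EBP motif in 5 (9.8% beside 10.8%). Of the 11 genes called lower, 8 had a promoter, with 9 windows, and none held the FoxO motif. The D-box of clock output factors (TTATGNAA) lay in 1 of the 9 (11.1% beside 3.38%), and so did the E-box (CACGTG, 11.1% beside 7.15%). Among the 51 windows of genes called higher, 2 held the D-box (3.92%) and 6 the E-box (11.8%).

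More transcripts were strongly raised than strongly lowered in BF. Of 22626 probe sets, 827 (3.66%) passed an adjusted p of 0.05 in BF vs. FC, 465 higher (2.06%) and 362 lower (1.6%) in BF. This balance turned with array weights, to 788 higher and 884 lower, and with 1 probe set per gene, to 144 higher and 210 lower. Of the 827, 75 (0.331% of all probe sets) also differed by more than 2-fold and are referred to as called, 60 higher (0.265%) and 15 lower (0.0663%). Leaving out BF replicate 4, BF replicate 5 or FC replicate 3 lowered the 827 to 475, 531 and 488, and leaving out FC replicate 1 raised the 15 called lower to 23. Most changes were small, since 469 of the 827 were under 1.5-fold. The median over all probe sets was -0.03 on the log2 scale and the median standard error (SE) of a difference was 0.117. BF and FC arrays did not overlap in 64 of the 75 called probe sets, beside 1168 (5.16%) of all probe sets. Of the called probe sets, 69 had a single gene symbol and named 58 genes, 47 higher and 11 lower.

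**Figure D1:**
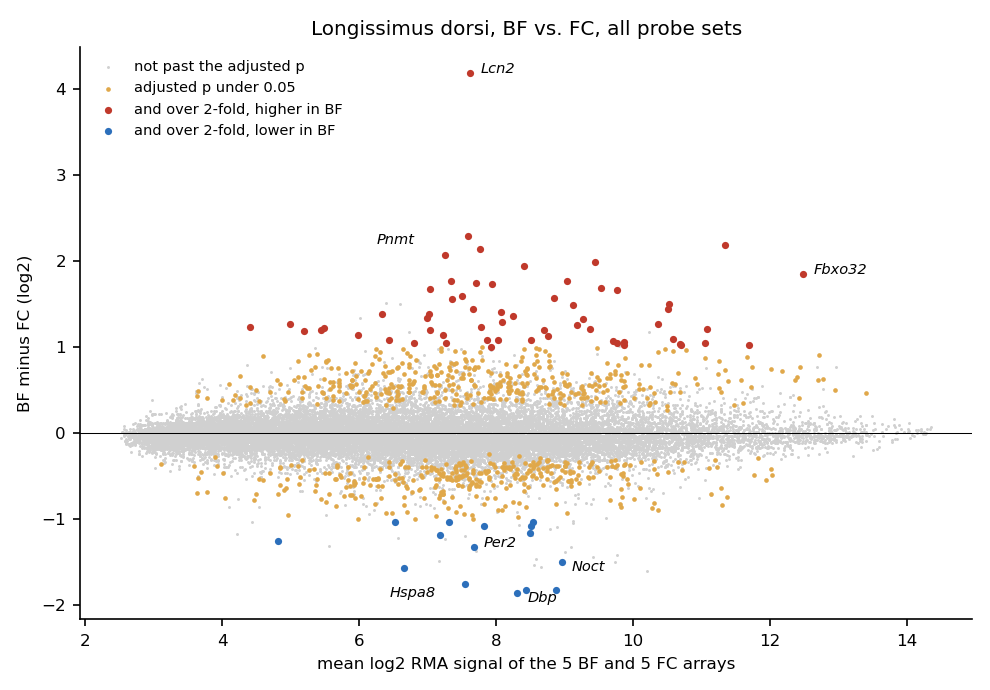
Each point is 1 probe set, with the mean log2 signal of the 10 arrays on the horizontal axis and BF minus FC on the log2 scale on the vertical axis. Grey points did not pass the adjusted p, ochre points passed it, and red and blue points were also over 2-fold higher or lower in BF. Lcn2 stands highest, at 4.18, and called points are more frequent above 0 (60) than below it (15).

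Several of the 58 genes rest on 1 probe set among several. Of the 41 genes with more than 1 probe set, every probe set passed the adjusted p in 16, some in 6 and only 1 in 19. A probe set reads a short stretch near the end of a transcript, so that transcripts of 1 gene with different ends can be read by different probe sets. Luc7l2, a splicing factor, passed in both directions, with -1.16 and -0.83 for 2 probe sets and 0.39 for another. The vesicle protein Vamp3 passed at 1.22 and at -0.54. Angptl4, Rhbdl3 and Dnajb1, given below by the passing probe set, each passed in 1 of 2. Their other probe sets stood at 0.15, -0.34 and -0.65 in that order. In many other genes named below, probe sets that differ are told apart with the gene.

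Some of the calls given below depended on the arrays in the fit. With the 10 BF and FC arrays alone, Dpysl3, Thy1, Sesn2, Jak1, Dnajb1, Hspb1, Cct7, Clk4, Nr4a1, Lmod2, Ankrd1 and Krt13 did not pass (adjusted p = 0.0507 to 0.129). With the arrays of longissimus dorsi alone, BG included, Plin5, Ppara, Dpysl3, Thy1, Sesn2, Jak1, Eif4ebp1, Hspb1, Creld2, Clk4, Nr4a1, Lmod2, Ankrd1, Hspa8 and Tnfaip2 did not (adjusted p = 0.0501 to 0.102). Without moderation of the variances, Plin5, Ppara, Dpysl3, Thy1, Hlf, Pik3r1, Angptl4, Eif4ebp1, Creld2, Clk4, Nr4a1, Ankrd1 and Tnfaip2 did not (adjusted p = 0.0523 to 0.0907). All of them kept their direction.

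Several genes of the acute phase response rose in BF. Lcn2, which encodes the secreted iron and siderophore carrier lipocalin-2, showed the largest change of all. In order of replicate number, the log2 signal of Lcn2 was 9.50, 8.54, 10.15, 9.69 and 10.68 in BF and 6.15, 5.40, 5.42, 5.14 and 5.56 in FC. The lowest BF array stood far above the highest FC array. BF exceeded FC by 4.18 on the log2 scale (SE 0.351, adjusted p = 6.09e-07), which is 18.1-fold. Lrg1, a plasma glycoprotein of the acute phase, was higher by 1.08 (SE 0.229, adjusted p = 0.00929). Il6ra, the receptor chain that binds interleukin-6, was higher by 1.0 (SE 0.175, adjusted p = 0.00218), with 7.83 to 8.73 in BF and 6.90 to 7.62 in FC. Cebpd, a transcription factor of the acute phase, was tight in BF, at 11.01, 10.95, 11.06, 10.93 and 11.08, and more scattered in FC, at 9.85, 9.91, 9.53, 9.0 and 10.38. It differed by 1.27 (SE 0.284, adjusted p = 0.0126). Its partner Cebpb rose by 1.20 in 1 probe set (adjusted p = 0.000196), while the brighter one stood at 0.32 (adjusted p = 0.205).

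Of the 21 measured genes on the list of acute phase and interleukin-6 genes, 5 were higher and 1 was lower, with a median of 0.08 over the list. With 1 probe set for each of 12393 genes, 382 genes (3.08%) passed, 154 higher (1.24%) and 228 lower (1.84%), with a median of -0.04, and the counts of all lists are read against these shares. The kinase Jak2 was the member that fell (-0.56, adjusted p = 0.00696), while Jak1 rose by 0.27 (adjusted p = 0.0462), a call that 18 of the 23 arrays could undo when left out (adjusted p = 0.0504 to 0.156). Other members did not pass. Socs3, the feedback inhibitor of interleukin-6 signalling, stood at -0.81 (adjusted p = 0.513), and its transcription factor Stat3 at 0.02 (adjusted p = 0.98). Interleukin-6 itself (Il6) stood at 0.08 and the acute phase gene Saa3 at 0.03, and neither passed. Lcn2 is also stored in the granules of neutrophils. Of 11 measured neutrophil markers 0 passed, also unadjusted, their summed linear signal spanned 403 to 432 in BF and 355 to 468 in FC, and S100a8 and S100a9 differed by 0.05 and -0.28.

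The muscle ubiquitin ligase Fbxo32 and other FoxO targets rose in BF. Fbxo32 read 13.30, 13.34, 13.54, 13.50 and 13.38 in BF and 11.98, 11.85, 11.43, 10.71 and 11.84 in FC. The BF arrays lay close together and above every FC array. The difference was 1.85 (SE 0.181, adjusted p = 3.54e-06), 3.6-fold, and a second probe set gave 2.18. Sesn1, a stress protein that restrains the growth kinase mTOR, read 10.21, 10.33, 10.25, 10.59 and 10.03 in BF and 8.87, 9.45, 9.12, 9.06 and 9.69 in FC. These did not overlap, and BF was higher by 1.04 (SE 0.13, adjusted p = 7.18e-05). Txnip, which blocks thioredoxin and glucose uptake, read 9.08, 9.22, 9.52, 9.74 and 9.27 in BF and 7.74, 7.71, 6.82, 7.17 and 7.71 in FC in 1 of its probe sets. BF was higher by 1.94 there (SE 0.189, adjusted p = 3.54e-06), and by 0.84 in the brighter probe set (adjusted p = 0.00782).

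On the list of atrophy and FoxO target genes, 7 of 25 measured genes were higher (28%) and 0 were lower, with a median of 0.31. The other 4 were Gadd45a, a growth arrest gene (0.78, adjusted p = 0.00171), Gabarapl1, which coats autophagosomes (0.56, adjusted p = 0.00846), Eif4ebp1, a repressor of translation (0.70, adjusted p = 0.0275), and the proteasome subunit Psmd11 (0.35, adjusted p = 0.0153). The call of Eif4ebp1, made in its brightest probe set, was lost without any 1 of BF replicates 2, 3 and 4 and FC replicates 4 and 5 (adjusted p = 0.0503 to 0.078). The study lists another probe set of Eif4ebp1 that was also higher in BF than in FC, with p under 0.05 in its ANOVA. The count of 7 rose to 11 without BG replicate 5, with array weights or with the replicate number as a block. The FoxO factors themselves did not pass, with Foxo1 at -0.39 (adjusted p = 0.316) and Foxo3 at 0.28 (adjusted p = 0.171). Few other members of these pathways passed. Of 38 proteasome subunits 2 passed, Psmd11 and Psmd7, both higher by 0.35, and Psmd7 did not pass without any 1 of BF replicates 3 and 5 and FC replicates 2 and 3 (adjusted p = 0.0507 to 0.0671). Of 34 autophagy genes 2 passed, Gabarapl1 and Npc1, a protein that carries cholesterol out of lysosomes. Npc1 read 9.16, 8.88, 9.39, 9.0 and 8.82 in BF and 8.33, 8.28, 7.93, 7.62 and 7.68 in FC, higher by 1.08 (SE 0.13, adjusted p = 4.71e-05). A receptor for autophagy of the endoplasmic reticulum, Retreg1, was higher by 1.03 (adjusted p = 0.000196) and passed in both of its probe sets, but was not on that list.

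Genes that respond to glucocorticoids and to metals were higher in BF, although the feedback genes of the glucocorticoid receptor did not move together. Fkbp5, a chaperone that the receptor induces and that dampens it, read 8.61, 7.71, 8.74, 9.18 and 8.63 in BF and 6.55, 7.27, 6.37, 6.83 and 7.16 in FC. BF was higher in every array, by 1.74 on average (SE 0.206, adjusted p = 4.15e-05), 3.33-fold. Metallothionein Mt2, a metal-binding protein, read 11.60, 10.67, 11.81, 11.20 and 11.12 in BF and 9.68, 9.54, 10.05, 9.38 and 10.26 in FC. It did not overlap and was higher by 1.5 (SE 0.229, adjusted p = 0.000678), and Mt1 was higher by 0.87 (adjusted p = 0.0135). The zinc importer Slc39a14 was higher by 0.84 (adjusted p = 0.00826). With Lcn2, these 3 made up the 4 of 25 genes of iron and zinc handling that were higher, with 0 lower and a median of 0.12.

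Of 26 measured glucocorticoid-responsive genes, 8 were higher (30.8%) and 0 lower, with a median of 0.42, and 13 were higher when any probe set of a gene could count. The 8 were Fkbp5, Lcn2, Mt1, Mt2, Cebpd, Gadd45a, Cdkn1a and Angptl4, and all but Fkbp5 belong to another list as well, so that the lists share members. Other textbook targets did not pass: Tsc22d3 stood at -0.12 (adjusted p = 0.823), Per1 at -0.36 (adjusted p = 0.308) and Dusp1 at -0.75. Klf9 stood at 0.12 in its brightest probe set (adjusted p = 0.563), with 2 of its 7 probe sets past the threshold. The receptor gene Nr3c1 stood at -0.10 and did not pass. Pnmt, the enzyme that turns noradrenaline into adrenaline and a glucocorticoid target in the adrenal gland, read 7.56, 8.16, 8.0, 9.46 and 8.22 in BF and 6.19, 6.25, 6.28, 6.30 and 6.04 in FC. The FC arrays were nearly equal and all below BF, and the difference was 2.07 (SE 0.219, adjusted p = 1.21e-05), 4.19-fold. This was 1 of 3 probe sets of Pnmt, and the others gave 0.56 (adjusted p = 0.109) and 0.06.

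The cell cycle inhibitor Cdkn1a (p21) rose, and most other p53 targets did not. Cdkn1a read 9.48, 9.61, 10.07, 10.23 and 10.18 in BF and 7.91, 7.88, 8.11, 7.82 and 9.07 in FC. FC replicate 5 stood above the other FC arrays but below all BF arrays, and BF was higher by 1.76 (SE 0.246, adjusted p = 0.00029), 3.38-fold. Of 18 measured p53 targets, 4 were higher (22.2%), namely Cdkn1a, Sesn1, Gadd45a and, by 0.37, Sesn2 (adjusted p = 0.0403). Sesn2 did not pass without any 1 of BF replicates 1, 2, 4 and 5 and FC replicates 3, 4 and 5 (adjusted p = 0.0628 to 0.106). The p53 inhibitor Mdm2 stood at 0.05 and Ccng1 at 0.03, and neither passed. Of 36 genes of mitosis and DNA replication 0 passed (4 at an unadjusted p under 0.05), with a median of -0.09. The spindle protein Tpx2 was lower in 1 of its 2 probe sets (difference -0.85, adjusted p = 0.013).

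**Figure D2:**
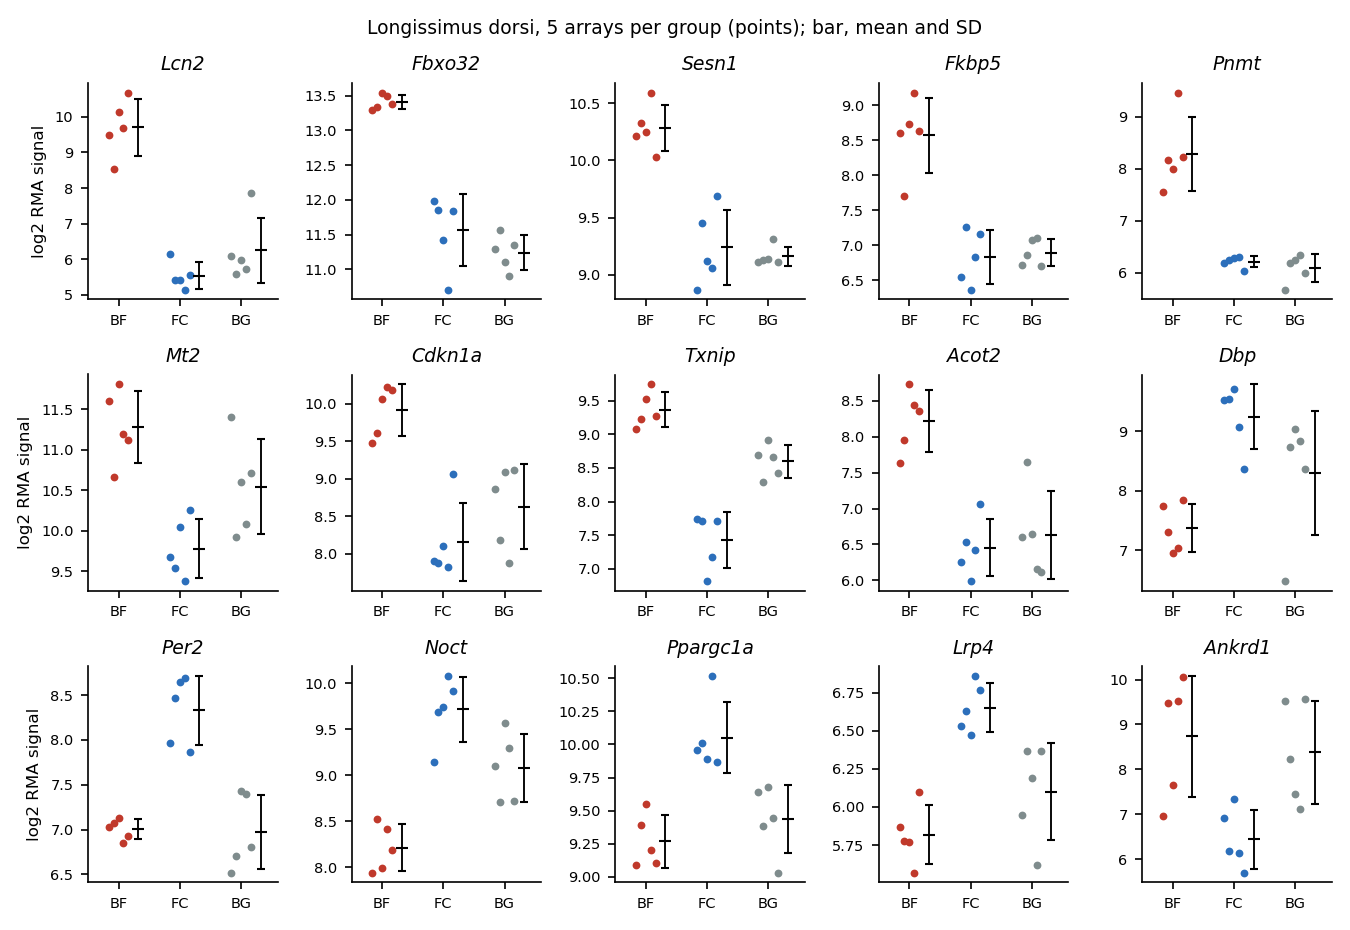
Log2 signal of 15 genes in each array of longissimus dorsi, with 5 arrays in each of BF (red), FC (blue) and BG (grey); bars give the mean and SD, and each panel has its own vertical axis. BF and FC do not overlap in 14 of the 15 panels, Ankrd1 being the exception, and in Per2 the BG arrays lie beside BF while in Fbxo32 and Sesn1 they lie beside FC.

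Of 31 measured genes of fatty acid oxidation and PPAR targets, 5 were higher and 2 lower in BF (22.6% together), with a median of 0.17. The 5 became 3 without BF replicate 4, without FC replicate 3 or without moderation. Acot2, a mitochondrial thioesterase that cuts acyl-CoA into fatty acid and coenzyme A, read 7.63, 7.96, 8.73, 8.44 and 8.36 in BF and 6.26, 6.53, 5.99, 6.42 and 7.07 in FC. It did not overlap and was higher by 1.77 (SE 0.248, adjusted p = 0.000286), 3.41-fold. The cytosolic thioesterase Acot1, whose sequence is close to that of Acot2 so that the probes may share signal, was higher by 1.34 (SE 0.29, adjusted p = 0.0101). Plin5, which coats lipid droplets in oxidative tissue, was higher by 1.57 (SE 0.38, adjusted p = 0.0205), with 8.94 to 10.06 in BF and 7.35 to 8.73 in FC. This call was lost without any 1 of BF replicates 4 and 5 and FC replicates 1, 2 and 3 (adjusted p = 0.0507 to 0.064). The triglyceride lipase Pnpla2 was higher by 0.79 (adjusted p = 0.00184) and the fatty acid transporter Cd36 by 0.73 (adjusted p = 0.0272). Of the 3 probe sets of Cd36, from 0.44 to 1.04, 2 passed. Not every raised gene given here is among the 5 counted. Angptl4, a secreted inhibitor of lipoprotein lipase, was higher by 1.59 (SE 0.379, adjusted p = 0.0192), with 7.46 to 8.87 in BF and 6.22 to 7.61 in FC, which overlapped. It did not pass without BF replicate 4 (adjusted p = 0.0555) or FC replicate 3 (adjusted p = 0.0634). Pdk4, the kinase that turns muscle from glucose to fat, stood at 0.77 and did not pass (adjusted p = 0.216), nor did the lipoprotein lipase Lpl (0.05, adjusted p = 0.877).

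The nuclear receptor Ppara, which drives many genes of fat oxidation, was lower. It read 7.58, 8.10, 8.10, 8.10 and 8.22 in BF and 8.53, 8.58, 9.16, 9.78 and 9.25 in FC, lower in BF (difference -1.04, SE 0.263, adjusted p = 0.0268). The groups did not overlap, but the call was lost without any 1 of BF replicates 1 and 4 and FC replicates 3, 4 and 5 (adjusted p = 0.056 to 0.0751). Its coactivator Ppargc1a, the main regulator of mitochondrial biogenesis, read 9.09, 9.39, 9.55, 9.20 and 9.10 in BF and 9.96, 10.01, 9.89, 10.52 and 9.87 in FC. These did not overlap, the difference was -0.78 (SE 0.146, adjusted p = 0.00377), and 3 of its 5 probe sets passed. Esrra, the receptor that acts with Ppargc1a on mitochondrial genes, differed by -0.44 (SE 0.103, adjusted p = 0.0164), and did not pass without FC replicate 3 (adjusted p = 0.0613). Of 21 genes of mitochondrial biogenesis and dynamics, 2 were lower, Ppargc1a and Esrra. Of the 73 measured subunits of oxidative phosphorylation 0 passed in limma, also at an unadjusted p under 0.05, with a median of -0.03.

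Fat cells between the fibres carry several of these lipid genes as well. Of 11 measured adipocyte markers 10 had a higher mean in BF, with a median of 0.55, but 0 passed (3 unadjusted, all higher) and the smallest adjusted p was 0.121. Their summed linear signal spanned 14400 to 37900 in BF and 6690 to 22700 in FC. Adipoq, made by fat cells, ranged from 9.96 to 12.81 in BF and from 8.98 to 12.17 in FC. The part of fat cells in the lipid genes was not tested. In whole muscle, fewer cells of a type and less RNA per cell cannot be told apart.

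Of 26 measured genes of insulin signalling and glucose uptake 3 passed (11.5%), Pik3r1, Gsk3b and Txnip, all higher, with a median of -0.01, and 7 were higher when any probe set of a gene could count. Pik3r1, the regulatory subunit of the kinase PI3K, was higher by 1.12 (SE 0.273, adjusted p = 0.0213) in its brightest probe set and by 1.08 in another (adjusted p = 0.00158). The first did not pass without BF replicate 1 or 3 or FC replicate 4 (adjusted p = 0.0545 to 0.0612). Gsk3b, the kinase that inactivates glycogen synthase, was higher by 0.70 (SE 0.162, adjusted p = 0.0159). The receptor substrate Irs1 stood at -0.55 (adjusted p = 0.137), the glucose transporter Slc2a4 at -0.01 and hexokinase Hk2 at -0.42 (adjusted p = 0.0554). Ide, a protease that degrades insulin, was higher by 1.14 in 1 of 4 probe sets (adjusted p = 0.0038). Of 23 genes of glycolysis and glycogen 0 passed, and 5 at an unadjusted p under 0.05.

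The small heat shock proteins Hspb7 and Hspb1 and the load-responsive Ankrd1 rose in BF. Hspb7, a small heat shock protein of heart and skeletal muscle, read 9.24, 9.87, 10.69, 11.25 and 11.13 in BF and 8.29, 7.79, 8.32, 8.97 and 8.86 in FC. It did not overlap, all 3 of its probe sets passed, and this one was higher by 1.99 (SE 0.335, adjusted p = 0.00163). Hspb1, which guards actin filaments, was higher by 0.91 (adjusted p = 0.0195). Lmod2, which lengthens thin filaments, was higher by 0.74 (adjusted p = 0.0178). Hspb1 did not pass without any 1 of BF replicates 4 and 5 and FC replicates 1 and 2 (adjusted p = 0.0511 to 0.0716), nor Lmod2 without BF replicate 4 or 5 or FC replicate 2 (adjusted p = 0.0541 to 0.0678). Ankrd1, an ankyrin repeat protein of the I-band that is induced by stretch, read 6.96, 9.48, 7.65, 9.53 and 10.06 in BF and 6.91, 6.17, 7.33, 6.13 and 5.70 in FC. BF replicates 1 and 3 stood within or near the FC range and the other 3 far above it, so that the difference of 2.29 had a wide error (SE 0.532, adjusted p = 0.0159). Its brighter probe set gave 2.14 (adjusted p = 0.0263) and did not pass without any 1 of BF replicates 2, 4 and 5 and FC replicates 2, 4 and 5 (adjusted p = 0.0583 to 0.0903). Tnfrsf12a, the receptor of the cytokine TWEAK, was higher by 1.02 (adjusted p = 0.00909). Of 28 genes of the Z-disc, M-band and load response 2 were higher, Ankrd1 and Lmod2, and 0 lower, with a median of 0.13.

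Other heat shock genes were lower or did not pass. Dnajb1, a co-chaperone of Hsp70, was lower (difference -1.08, SE 0.227, adjusted p = 0.00871), but did not pass in the fit of the BF and FC arrays alone (adjusted p = 0.0507). Inducible Hsp70 was scattered in both groups, with Hspa1b from 7.75 to 10.77 in BF and from 9.38 to 12.80 in FC, and its difference of -1.60 did not pass (adjusted p = 0.143). Of 35 heat shock genes 2 were higher, Hspb1 and Hspb7, and 2 lower, Dnajb1 and the chaperonin subunit Cct7 (-0.34). Of 26 chaperones of the endoplasmic reticulum 1 passed, Creld2, at -0.55 (adjusted p = 0.0334). Leaving out any 1 of 7 arrays ended the call of Cct7 (adjusted p = 0.0528 to 0.0857), and any 1 of 7 that of Creld2 (adjusted p = 0.0512 to 0.101), BF replicates 1, 3, 4 and 5 in both. The stress factor Ddit3 (CHOP) was lower (difference -0.62, adjusted p = 0.00264).

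Further genes with large increases are given singly. Net1, an exchange factor for the GTPase RhoA, read 9.07, 8.10, 9.46, 8.76 and 8.64 in BF and 7.68, 7.45, 6.95, 6.69 and 6.62 in FC, higher by 1.73 (adjusted p = 0.000328). Myo5a, a motor that carries vesicles along actin, was higher by 1.67 (adjusted p = 0.0054), and both of its probe sets passed. Gdi2, which returns Rab GTPases from membranes, was higher by 1.44 in 1 of its 6 probe sets (adjusted p = 0.0051), the other 5 ranging from -0.04 to 0.37. The same held for Rab18, a GTPase of lipid droplets, with 1.23 in 1 of 2 probe sets (adjusted p = 0.00461), for the lipid phosphatase Synj2, with 1.14 in 1 of 6, and for the membrane protein Serinc3, with 1.49 in 1 of 5. Tmem140, a membrane protein, was higher by 1.68 (SE 0.186, adjusted p = 2.06e-05). The transcript 6430548M08Rik had the same adjusted p as Lcn2 (6.09e-07) and was higher by 1.38 with a small error (SE 0.117). Among transporters, Slc7a2, which imports arginine and lysine, was higher by 1.26 in 1 of its 3 probe sets (adjusted p = 0.00127) and passed in another, and the glycerol channel Aqp7 by 1.23 in 1 of 2 (adjusted p = 0.000328). St3gal5, which makes the ganglioside GM3, was higher by 1.06 (adjusted p = 0.002).

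Dbp, Per2 and Noct were among the largest decreases. Dbp, a transcription factor that the clock drives directly, read 7.74, 7.31, 6.96, 7.03 and 7.84 in BF and 9.52, 9.55, 9.71, 9.07 and 8.36 in FC. The groups did not overlap, and BF was lower (difference -1.86, SE 0.398, adjusted p = 0.0099), 3.64-fold. Per2, a repressor at the core of the clock, read 7.03, 7.07, 7.13, 6.85 and 6.93 in BF and 7.97, 8.47, 8.65, 8.69 and 7.87 in FC. The BF arrays were tight and all below FC, with a difference of -1.33 (SE 0.202, adjusted p = 0.000642), 2.51-fold. Its second, dimmer probe set gave -0.40 (adjusted p = 0.116). Noct, a rhythmic phosphatase of nicotinamide coenzymes, read 7.94, 8.52, 7.99, 8.41 and 8.19 in BF and 9.14, 9.69, 9.74, 10.08 and 9.92 in FC, a difference of -1.5 (SE 0.168, adjusted p = 2.07e-05) with no overlap. Hlf, a relative of Dbp, was lower in both probe sets (difference -0.59 in the brighter one, SE 0.15, adjusted p = 0.0263). The brighter one did not pass without any 1 of BF replicates 3, 4 and 5 and FC replicates 2 and 3 (adjusted p = 0.0521 to 0.0855).

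The clock did not shift as one. Of 20 measured clock genes 3 were lower, Dbp, Per2 and Hlf (15%), and 0 were higher, with a median of -0.20, and 5 were lower without BG replicate 1, with array weights or with the BF and FC arrays alone. The activator Arntl stood at 0.75 (adjusted p = 0.121), opposite to its repressor Per2, with 7.98 to 8.81 in BF and 6.96 to 8.32 in FC. Per3 stood at -0.76 (adjusted p = 0.109) although its arrays did not overlap. Cry1 (-0.51), Cry2 (-0.15), Nr1d1 (-0.15), Nr1d2 (-0.40, adjusted p = 0.0634), Per1 (-0.36) and Clock (0.17) did not pass. The time of day at which the muscles were taken was not given in the sources used here, and its part in these genes was not tested.

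**Figure D3:**
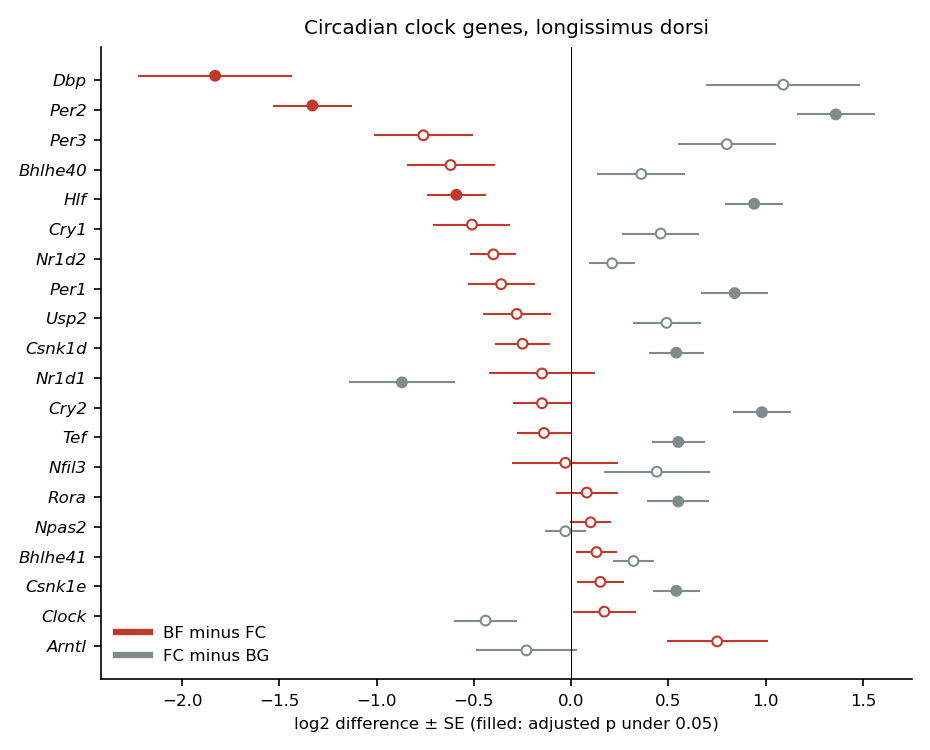
Log2 differences (horizontal axis, ± SE) of circadian clock genes in longissimus dorsi for BF vs. FC and, beside it, FC vs. BG, with filled points past the adjusted p. Dbp, Per2 and Hlf are filled and below 0 in BF vs. FC, while Arntl, at 0.75, is open.

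Lrp4, Dapk2, Rhbdl3 and Plpp7 were lower in BF as well. Lrp4, the receptor of nerve-derived agrin at the neuromuscular junction, read 5.87, 5.78, 5.77, 5.57 and 6.10 in BF and 6.53, 6.63, 6.47, 6.86 and 6.77 in FC. It did not overlap and was lower (difference -0.83, SE 0.128, adjusted p = 0.00068). It was the only gene that was lower among 21 genes of the neuromuscular junction and denervation, while 2 were higher, Cdkn1a and Gadd45a. The kinase Dapk2, which promotes cell death and autophagy, differed by -1.08 (adjusted p = 0.00241). The adhesion protein Cadm1 differed by -0.87 (adjusted p = 0.00283) and passed in 3 of 4 probe sets. Rhbdl3, a rhomboid family membrane protein, differed by -1.03 (adjusted p = 0.000973), Septin8, a cytoskeletal GTPase, by -0.84 (adjusted p = 0.00116), and Plpp7, a nuclear envelope protein of muscle, by -0.93 (adjusted p = 0.000145).

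The fibroblast surface protein Thy1 (-0.94, adjusted p = 0.0204) and Dpysl3, a cytoskeletal protein of growing cells (-1.0, adjusted p = 0.0243), were lower as well. Thy1 did not pass without BF replicate 4 (adjusted p = 0.0716), nor Dpysl3 without any 1 of BF replicates 2, 4 and 5 and FC replicates 1 and 3 (adjusted p = 0.0579 to 0.0836). Thy1 was the 1 of 13 fibroblast markers that passed, and the list had a median of -0.21 and a summed signal of 16100 to 31100 in BF and 18700 to 34000 in FC. Of 49 genes of the extracellular matrix 1 passed, P4ha1, a collagen hydroxylase that was lower (difference -0.80, adjusted p = 0.00309), with a median of -0.22 over the list. Thrap3 (-1.0, adjusted p = 0.00334) and Sfpq (-0.95, adjusted p = 0.00883), both proteins of RNA splicing, were lower in 1 of 3 and 1 of 5 probe sets. Of 44 splicing and RNA-binding genes, taken by their brightest probe sets, 1 passed, the kinase Clk4, higher by 0.44, which any 1 of 7 arrays could undo, BF replicates 1, 3 and 4 among them (adjusted p = 0.0523 to 0.11). Hspa8, the constitutive Hsp70, was lower in 1 of 4 probe sets (difference -1.75, adjusted p = 0.0164, and 0.0501 with longissimus dorsi alone), while the other 3 lay between -0.16 and -0.12. Tnfaip2, a gene induced by tumour necrosis factor, was lower in 1 of 2 probe sets (difference -1.18, adjusted p = 0.0399), a call that any 1 of 10 arrays could undo (adjusted p = 0.0501 to 0.105). The long noncoding RNA Lncpint was lower (difference -1.57, SE 0.288, adjusted p = 0.00327).

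No gene passed on the lists of fast and slow sarcomere genes and of cytosolic ribosomal proteins. The tissue label was checked on 13 fibre markers as skeletal muscle only, and not against tongue, which is skeletal muscle too. The fibre markers averaged between 13.94 and 14.06 on the log2 scale in all 10 arrays, near the top of the range of the table. Their summed linear signal was 217000 to 223000 in BF and 211000 to 226000 in FC. Myh4, the fast 2B myosin, differed by 0.03, skeletal actin Acta1 by 0.07 and creatine kinase Ckm by 0.00. Of 15 fast and 12 slow sarcomere genes 0 passed, also unadjusted, with medians of 0.01 and 0.11. Myh7, the slow myosin, stood at 0.21 (adjusted p = 0.931), with FC replicate 2 at 9.07. Of 43 cytosolic ribosomal proteins 0 passed, with a median of -0.03, and 4 at an unadjusted p under 0.05, all lower. Macrophage markers (26), mast cell markers (10), lymphocyte markers (11), red blood cell markers (5), markers of smooth muscle and pericytes (10), Schwann cell markers (8), interferon-responsive genes (30) and antigen presentation genes (16) had 0 past the adjusted p, and 2 Schwann cell markers and 1 interferon-responsive gene passed unadjusted.

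**Figure D4:**
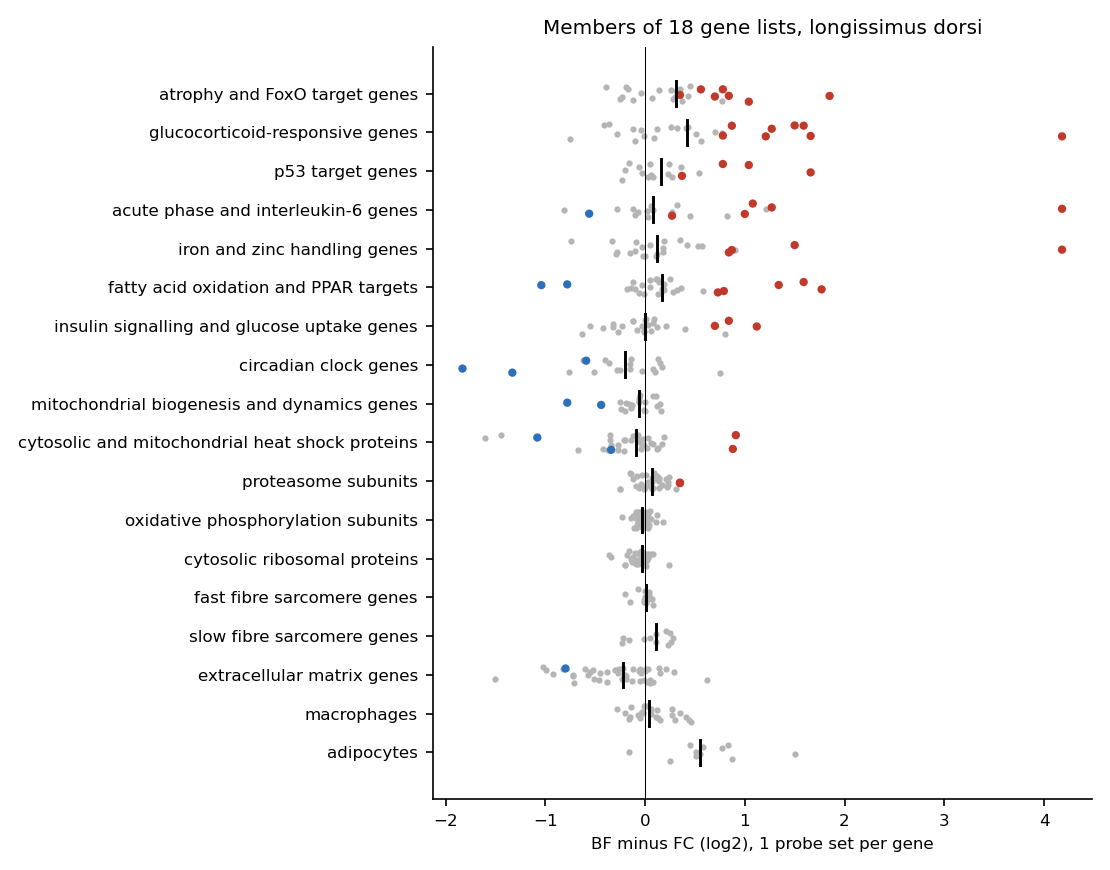
BF minus FC on the log2 scale (horizontal axis) for the members of selected gene lists, 1 probe set per gene. Red and blue points passed the adjusted p, higher and lower in BF, grey points did not, and the black bar is the median of the list. The points of oxidative phosphorylation, ribosomal and sarcomere genes crowd near 0, and the glucocorticoid-responsive genes, with a median of 0.42, reach from -0.75 to 4.18.

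Single members passed in other lists. Cldn5, a tight junction protein of vessels, was higher by 1.04 (adjusted p = 0.00793) and was the 1 of 19 endothelial markers that passed. Myf6, the myogenic factor of mature fibres, was higher by 0.68 (adjusted p = 0.015), the 1 of 23 myogenic genes. Tgif1, a repressor of TGF-beta signalling, was higher by 0.89 (adjusted p = 0.0054), and the receptor Acvr1 lower (-0.61, adjusted p = 0.0216), among 31 genes of that pathway. Jph1, which ties the sarcoplasmic reticulum to the T-tubule, was higher by 0.55 (adjusted p = 0.00867), the 1 of 27 calcium handling genes. Of 28 immediate early genes Klf10 was higher by 0.80 (adjusted p = 0.0155) and Nr4a1 lower (-0.90, adjusted p = 0.0369). Without BF replicate 4, Myf6 (adjusted p = 0.0532), Klf10 (0.0514), Acvr1 (0.0684) and Nr4a1 (0.126) did not pass, and Acvr1 and Nr4a1 lost their calls without other arrays as well. Eif4a1, the helicase of translation initiation, was higher by 0.47 (adjusted p = 0.00774), which with Eif4ebp1 made 2 of 41 translation factors. Dhcr7, the last enzyme of cholesterol synthesis, was lower (-0.54), and Npc1 higher, among 29 genes of lipid and cholesterol. Krt13, an epithelial keratin, was lower (-0.52) and was the 1 of 13 epithelial markers that passed, though not with the BF and FC arrays alone (adjusted p = 0.0549).

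The difference of FC and BG tests, gene by gene, whether BF vs. FC and BF vs. BG differ. FC vs. BG passed for 2025 probe sets (8.95%), with FC higher in 6.79% of all probe sets and lower in 2.16%. BF vs. FC and FC vs. BG share the FC arrays, and these genes were chosen for their difference from FC, so that a gene high in FC tends to be high against both groups. The 15 largest increases and 15 largest decreases were taken only from genes whose BF and FC arrays did not overlap. Larger changes that overlapped, such as those of Ankrd1 and Hspa8, are left out of them. Among the 15 increases, FC was lower than BG for Txnip (-1.17, adjusted p = 0.00148), Mt2 (-0.76, adjusted p = 0.0402) and Hspb7 (-1.20, adjusted p = 0.029). Mt2 did not pass in FC vs. BG without any 1 of BG replicates 1 and 3 and FC replicates 1 to 4 (adjusted p = 0.0557 to 0.126), nor Hspb7 without BG replicate 4 or FC replicate 2 or 3 (adjusted p = 0.053 to 0.0865). Lcn2 (-0.71, adjusted p = 0.214), Fbxo32 (0.32, adjusted p = 0.288) and Net1 (-0.41, adjusted p = 0.324) did not pass. Among genes outside that group, Angptl4 (-1.52, adjusted p = 0.0162), Ankrd1 (-1.93, adjusted p = 0.0271), Tnfrsf12a (-1.40, adjusted p = 0.00125) and Aqp7 (-0.64, adjusted p = 0.0249) were lower in FC than in BG. Il6ra was higher in FC than in BG (0.60, adjusted p = 0.0336).

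Of the 15 largest non-overlapping decreases, 6 were also lower in BF than in BG past the adjusted p. Of the 15 increases, 14 were also higher in BF than in BG. Per2 was not among the 6 decreases. It was higher in FC than in BG by 1.36 (adjusted p = 0.00115), while BF and BG differed by 0.03 (adjusted p = 0.948). Its low level in BF was thus also that of ground mice in the habitat. Noct was higher in FC than in BG by 0.63 (adjusted p = 0.0219) and lower in BF than in BG (difference -0.87, adjusted p = 0.0025), and the first of these did not pass without BG replicate 2 or FC replicate 3 or 4 (adjusted p = 0.0508 to 0.0623). The difference of Dbp between FC and BG, 0.95, did not pass (adjusted p = 0.14). FC also exceeded BG for Hlf (0.94, adjusted p = 0.00141), Cry2 (0.98, adjusted p = 0.00115), Ppargc1a (0.61, adjusted p = 0.0121), Esrra (0.34, adjusted p = 0.0398) and Lrp4 (0.55, adjusted p = 0.0107). The same was seen for Plpp7 (0.77, adjusted p = 0.00141), Sfpq (1.19, adjusted p = 0.002), Thrap3 (0.91, adjusted p = 0.00504), Lncpint (2.09, adjusted p = 0.000924), Dnajb1 (1.22, adjusted p = 0.00338) and the Hspa8 probe set (1.59, adjusted p = 0.0191). Dapk2 (0.12, adjusted p = 0.749), Thy1 (0.02) and Dpysl3 (0.17) did not pass, and these 3 were lower in BF than in BG as well (-0.96, -0.92 and -0.83, adjusted p = 0.00301, 0.0128 and 0.0372).

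The tongue, a muscle that is used in feeding and carries no body weight, was compared in the same way with 3 BF and 2 FC arrays. BF vs. FC in tongue passed for 506 probe sets (2.24%), with BF higher in 1.16% of all probe sets and lower in 1.08%. Of the 75 called probe sets of longissimus dorsi, 21 passed in tongue in the same direction, 17 higher and 4 lower, which is 21 of the 506 seen from the tongue. No label ties a tongue to a back muscle of the same animal. Of the 15 genes with the largest non-overlapping increases, 6 passed in tongue, among them Txnip (1.80, adjusted p = 0.00114), Hspb7 (2.13, adjusted p = 0.0201), Pnmt (1.32, adjusted p = 0.0267) and Fkbp5 (1.18, adjusted p = 0.0371). Of the 15 largest non-overlapping decreases, 4 passed, Per2 (-1.32, adjusted p = 0.0172), Lrp4 (-0.95, adjusted p = 0.00659), Thrap3 (-1.44, adjusted p = 0.00492) and Sfpq (-1.15, adjusted p = 0.0348). Lcn2 (1.37, adjusted p = 0.173), Fbxo32 (0.78, adjusted p = 0.127) and Cdkn1a (0.46, adjusted p = 0.579) did not.

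A gene that passed in 1 muscle and not in the other was not shown to differ between them. The difference between the muscles passed for 15 probe sets in all (0.0663%), and for 0 of the 75 called probe sets. The 15 became 1 without BF longissimus dorsi replicate 5 or FC tongue replicate 1, 2 without FC tongue replicate 2 and 5 without BF tongue replicate 3. At an unadjusted p under 0.05, 33 of the 75 passed, 26 of them with the higher BF minus FC difference in longissimus dorsi, the muscle whose change had chosen them. The difference was 2.81 for Lcn2 (adjusted p = 0.136) and 1.29 for Cdkn1a (adjusted p = 0.412). The median SE of that difference was 0.206, beside 0.117 in longissimus dorsi and 0.169 in tongue, so that the few tongue arrays limit what could be told apart.

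**Figure D5:**
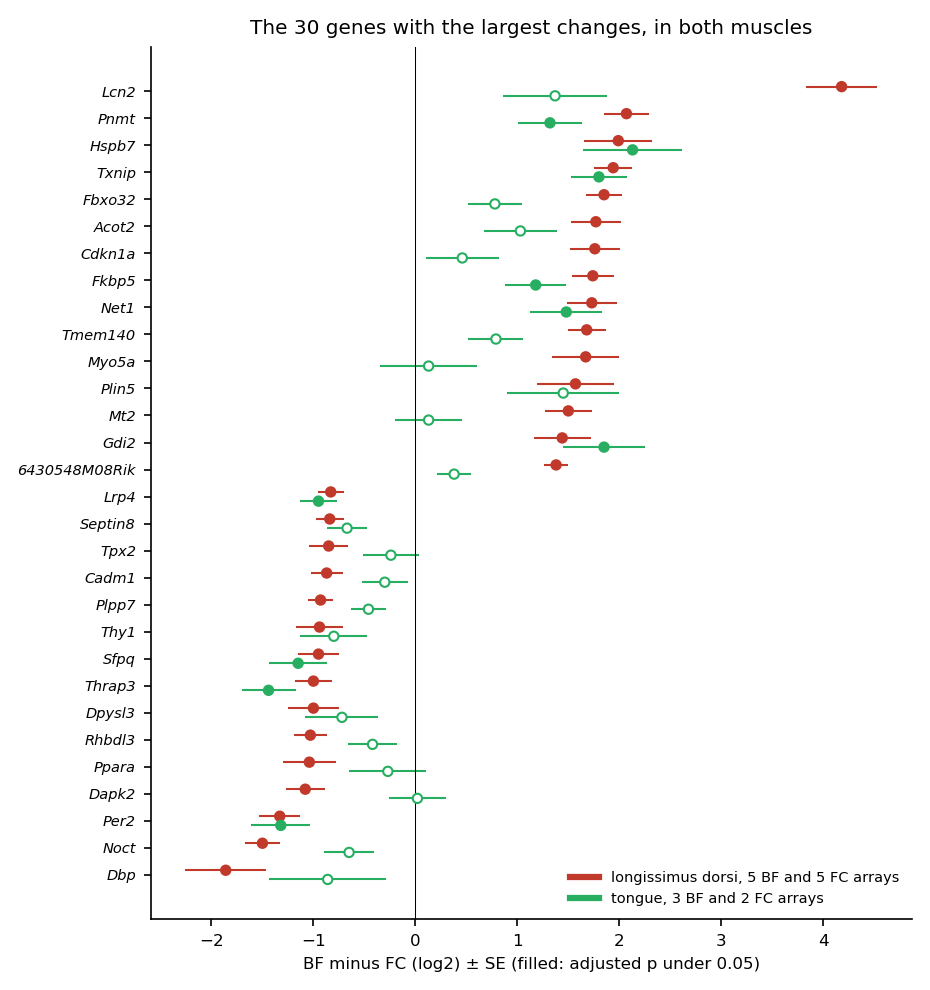
BF minus FC (log2, horizontal axis, ± SE) in longissimus dorsi and tongue. Shown are the 15 largest increases and 15 largest decreases in longissimus dorsi among genes whose BF and FC arrays did not overlap there. Filled points passed the adjusted p. The longissimus dorsi points chose the genes, and the tongue points of 6 increases and 4 decreases are filled.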

How the data were processed

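RNA of 23 muscle samples was labelled and hybridized to Affymetrix mouse arrays. From the scans, the authors computed log2 values with RMA (background-corrected, quantile-normalized, summarized by median polish) in Partek; these deposited log2 values were used as given, without filter, so no depth or detection call stands behind a value, and the number of arrays limits the precision. All 6 groups of muscle and housing were fitted in 1 linear model with limma 3.58.1 (R 4.3.3; 17 residual degrees of freedom), two-sided, with Benjamini-Hochberg adjustment over the 22626 probe sets, and tested on simulated data. Of the probe sets, 20380 name 1 gene, 691 several and 1555 none in the platform annotation; only the first are named. Lists used the brightest probe set of each of 12393 genes. Named were the 15 largest non-overlapping increases and decreases, each by its probe set of smallest adjusted p, up to 6 members of each of 45 lists, members that define a list and genes that the study grouped by function. Hspa8, Lncpint, Luc7l2, Tnfrsf12a, Cebpb, Slc7a2, Ide, Aqp7, Synj2, Retreg1, Vamp3, Rab18, Serinc3 and St3gal5 were named after their values were seen. Members, lists and genes were chosen with earlier results of these data known. Alternatives were other fits, moderation, filters, scalings, array weights, probe sets, a replicate block and leaving out each array.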

Additional observations from a re-analysis of the deposited data

Results flagged for a closer look

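Among 176 groups of 5 arrays of named genes, 11 (6.25%) held 1 array whose gap to the nearest other exceeded 0.71 of the range of the group, where chance flags about 5%. High arrays were Acot1 in FC replicate 5 (7.55, others 5.82 to 6.28), Cdkn1a in FC replicate 5 (9.07, others 7.82 to 8.11), Dnajb1 in BF replicate 5 (8.53, others 7.76 to 7.87), Lrg1 in FC replicate 1 (8.02, others 7.29 to 7.46), P4ha1 in FC replicate 4 (9.23, others 8.45 to 8.58) and Ppargc1a in FC replicate 4 (10.52, others 9.87 to 10.01). Low arrays were Cadm1 in FC replicate 4 (7.26, others 7.76 to 7.94), Gsk3b in FC replicate 4 (8.16, others 8.62 to 8.81), Gabarapl1 in FC replicate 5 (9.22, others 9.31 to 9.34), Ide in FC replicate 3 (4.56, others 5.40 to 5.74) and Ppara in BF replicate 1 (7.58, others 8.10 to 8.22).

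BF vs. FC differed between longissimus dorsi and tongue for 10 named genes, given as longissimus dorsi minus tongue on the log2 scale with limma's adjusted p. Each of the 10 did not pass under at least 1 other setting (largest adjusted p from 0.235 to 0.763), Ahcyl2 under 1 of 30 and Fgfr1op2 under 21 of 29. The 15 probe sets that these belong to became 1 without BF longissimus dorsi replicate 5 or FC tongue replicate 1, and 0 with 1 probe set per gene. The transcription factor Foxp1 differed by 1.4 (adjusted p = 0.0225), with -0.40 in longissimus dorsi and -1.80 in tongue. The water and glycerol channel Aqp3 differed by -1.31 (adjusted p = 0.0331), with -0.02 and 1.28. The exchange factor Vav3 differed by -1.13 (adjusted p = 0.0225), with -0.03 and 1.10. The proteasome subunit Psmd11 differed by 0.66 (adjusted p = 0.0297), with 0.47 and -0.20 in that probe set. The others were Ap2a2 (0.91, adjusted p = 0.0225), Stk39 (1.0, adjusted p = 0.0225), Nrp2 (1.03, adjusted p = 0.0244), Fgfr1op2 (1.07, adjusted p = 0.0422), Ahcyl2 (1.12, adjusted p = 0.00653) and Cdca7 (1.26, adjusted p = 0.0225).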

How the results depend on the processing

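Of 88 named genes, 62 passed the adjusted p under every other setting that kept their probe set. Among them were 26 of the 30 with the largest non-overlapping changes, and a choice by arrays that do not overlap favours calls that hold. The exceptions among the 30 were Plin5, Ppara, Dpysl3 and Thy1, and 0 of the 88 changed sign. Of the 33 other settings, 31 to 33 kept the probe set of a gene. The setting of 1 probe set per gene left out those of Gdi2, Ide and Rab18, whose brightest probe sets did not pass. The 827 probe sets past the adjusted p (465 higher, 362 lower) became 1672 (788 and 884) with array weights and 354 (144 and 210) with 1 probe set per gene; lower ones fell to 238 with longissimus dorsi alone. The 75 called (60 higher, 15 lower) became 33 (24 and 9) with 1 probe set per gene, and lower ones 26 with array weights. Leaving out each array gave 475 (without BF replicate 4) to 1126 (without BG replicate 5) past the adjusted p, 531 without BF replicate 5 and 488 without FC replicate 3, with 289 to 589 higher and 184 (without FC replicate 3) to 537 lower. It gave 58 to 93 called, 45 to 73 higher and 13 to 23 lower. The 15 differences between muscles became 4 without moderation, 3 among brighter probe sets, 105 with array weights, 8 with the replicate block, 0 with 1 probe set per gene and 1 to 18 by leaving out an array. FC vs. BG passed for 10 of the 30 genes, for 6 with longissimus dorsi alone, 6 with 1 probe set per gene and 7 to 10 by leaving out an array. Atrophy genes, 7, became 11 with array weights, 11 with the block and 6 to 11 by leaving out an array; glucocorticoid genes, 8, became 13 over all probe sets and 7 to 9; p53 targets, 4, became 3 to 4; acute phase genes, 5, became 4 to 5; lower clock genes, 3, became 5 with BF and FC alone, 5 with array weights and 2 to 5; insulin genes, 3, became 7 over all probe sets and 2 to 4; fatty acid genes, 5, became 3 without moderation and 3 to 6; metal genes, 4, became 4 to 6. Same-numbered BF and FC arrays deviated together with r from -0.07 to 0.55, and 6 of 10 arrays correlated best with their own number, a hint of pairing from the data; since the labels tie no numbers to animals and 1 pair stood at -0.07, the numbers were not taken as pairs. The replicate block gave 1052 past the adjusted p (575 higher, 477 lower), 79 called (62 and 17) and 11 for FC vs. BG. Higher probe sets made up 56.2% of those past the adjusted p, 55.2% after median centring and 61.7% after quantile normalization. Without BF replicate 4, 20 named genes did not pass, 12 with the BF and FC arrays alone, 15 with longissimus dorsi alone and 13 without moderation. The causes were not tested.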

Other observations

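The stress-induced genes Atf3, Hspa1b and Ankrd1 varied in a shared way within BF, but not all 3 within FC. Other stress-induced genes are not given here. In BF, replicates 2, 4 and 5 were high and replicates 1 and 3 low for Atf3 (6.70, 8.98, 6.72, 9.13 and 9.72 in order of replicate number), Hspa1b (7.75, 10.11, 8.09, 10.29 and 10.77) and Ankrd1 (6.96, 9.48, 7.65, 9.53 and 10.06). In FC, replicates 4 and 5 were highest for Atf3 (6.57, 7.01, 6.85, 8.85 and 8.94) and Hspa1b (9.38, 10.02, 10.71, 12.80 and 12.11), but lowest for Ankrd1 (6.91, 6.17, 7.33, 6.13 and 5.70). Atf3, a stress-induced transcription factor, did not pass in BF vs. FC (0.61, adjusted p = 0.697).

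A second shared pattern lay in FC, in probe sets whose gene held other, unchanged probe sets. FC replicates 1 and 3 were the lowest for Gdi2 (6.27, 7.66, 5.78, 7.60 and 7.41), Rab18 (6.80, 7.65, 6.13, 7.65 and 7.61), Vmp1 (7.02, 7.76, 6.70, 7.85 and 7.81) and Ide (5.40, 5.74, 4.56, 5.72 and 5.66). The brightest probe sets of these genes differed between BF and FC by 0.15, 0.01, 0.41 and -0.12 in that order, and did not pass. These genes were picked after their values were seen.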
